A study of Danio rerio with 4 samples.

Results

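The genes described here encode the subunits of the transcription factor NF-kB and its feedback inhibitors, measured in sorted zebrafish endothelial cells. A gene was kept when its symbol equalled 1 of 10 listed names, ignoring case. All 10 were found among the 31951 Ensembl genes of the table, each in 1 row. The 5 subunit genes were nfkb1 (ENSDARG00000105261), nfkb2 (ENSDARG00000038687), rel (ENSDARG00000055276), rela (ENSDARG00000098696) and relb (ENSDARG00000086173). The 5 inhibitor genes were nfkbiaa (ENSDARG00000005481), nfkbiab (ENSDARG00000007693), nfkbie (ENSDARG00000068367), tnfaip3 (ENSDARG00000027777) and bcl3 (ENSDARG00000087832). All 10 passed the filter on low values, which asked for 2 or more libraries with an FPKM of 1 or more, as did 17723 genes in all. FPKM is the number of fragments assigned to a gene, divided by its transcript length and by the mapped fragments of the library.

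Fish carrying kdrl:mcherry and kdrl:cxcr1, here called kdrl:cxcr1, were set against fish with kdrl:mcherry alone, here called wild-type. The kdrl promoter, active in endothelium, drives the red fluorescent protein used for sorting in both lines, and the CXCL8 receptor gene cxcr1 in the first. Cells came from dissociated zebrafish embryos, whose age the labels do not give, and each of 2 independent clutches gave 1 RNA-seq library per genotype, 4 in all. The question named in the study's title is how CXCL8 and CXCR1 affect the vascular niche of blood stem and progenitor cells.

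NF-kB is a dimer of proteins that share a DNA-binding Rel homology domain. In resting cells inhibitor proteins of the IkB family hold it in the cytoplasm, until the IkB kinase (IKK) marks them for destruction and the dimer enters the nucleus. Several inhibitors are themselves NF-kB target genes, so the pathway switches itself off, and in endothelium it turns on adhesion molecules and chemokines during inflammation.

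FPKM values summed to between 986557 and 1280969 per library, and read depth is unknown from such values. The clutch 2 libraries stood apart in listing 42.0% to 43.5% of genes at 0, against 31.9% in each clutch 1 library. Of 18 endothelial markers 12 were matched, and all 12 read above 0 in each library; kdrl itself had 140 and 157 FPKM in kdrl:cxcr1 clutches 1 and 2, against 128 and 274 FPKM in wild-type clutches 1 and 2. The gene cxcr1 read 12.8 and 0 FPKM in kdrl:cxcr1 cells and 8.14 and 0 FPKM in wild-type cells, and another row named CXCR1, ENSDARG00000054975, had 0 and 8.21 FPKM in kdrl:cxcr1 cells and 3.89 and 0 FPKM in wild-type. Neither row separated the genotypes, and every direction here is between libraries as labelled. The 4 libraries give a two-sided exact permutation p of at least 0.333, so each limma p rests on a spread pooled over genes. In cell samples of this kind, fewer cells of a type and less RNA per cell cannot be told apart.

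The first comparison was of level between inhibitors and subunits. The pair of IkB-alpha genes stood far above the other 8 members in every library. nfkbiab averaged 358 ± 49.0 FPKM and nfkbiaa 159 ± 59.8 FPKM (SD over the 4 libraries, n = 4), which placed them above 98.6% and 96.1% of tested genes in the library where each ranked lowest. Together the IkB-alpha pair made up 87.8% and 89.5% of the summed inhibitor FPKM in the kdrl:cxcr1 libraries, and 89.0% and 89.7% in the wild-type libraries. The lowest nfkbiab value lay above the highest nfkbiaa value, and the lowest nfkbiaa value above that of any other member.

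Below the IkB-alpha pair the order of mean log2 level ran rel, relb, tnfaip3, nfkb1, nfkbie, rela, nfkb2 and bcl3, and the ranges of each neighbouring pair overlapped. Subunits and the remaining inhibitors were mixed in this order, though some members were apart. bcl3 (at most 9.65 FPKM) lay below rel, relb, nfkb1 and rela in every library. tnfaip3 (at least 26.6 FPKM) lay above nfkb2 (at most 22.5 FPKM). The median inhibitor lay 0.34 ± 0.32 log2 units (SD, n = 4 libraries) above the median subunit on the log2(FPKM + 1) scale. It was 0.68 and -0.07 in the kdrl:cxcr1 libraries of clutches 1 and 2, and 0.26 and 0.49 in the wild-type libraries. The mean became 1.42 without bcl3, an unusual IkB protein of the nucleus that can also act as a co-activator.

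**Figure D1:**
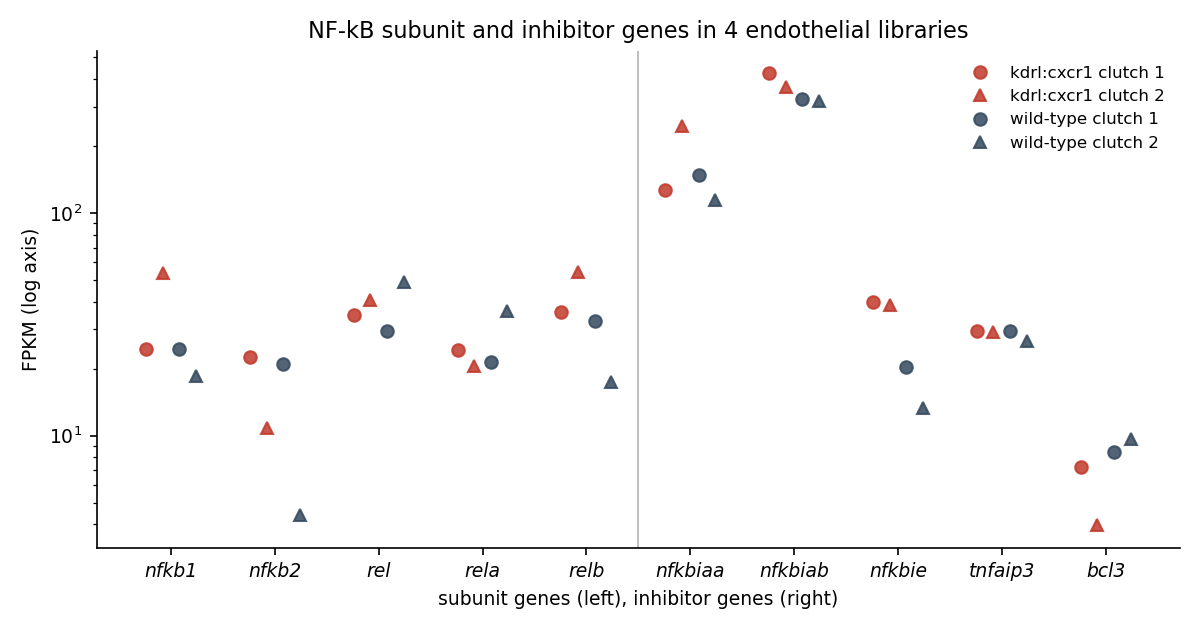
FPKM on a log axis for each member in each library, with colour for genotype and symbol shape for clutch; each point is 1 library. nfkbiab (317 to 424 FPKM) and nfkbiaa (114 to 246 FPKM) lie above the other members, while tnfaip3 (26.6 to 29.6 FPKM) hardly spreads and nfkb2 (4.41 to 22.5 FPKM) spreads most.

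Summed over members, inhibitors lay above subunits at a ratio of 3.80 to 4.41 in the 4 libraries, with most of the inhibitor sum from the IkB-alpha pair. The inhibitors summed to 627 and 686 FPKM in kdrl:cxcr1 cells of clutches 1 and 2 and to 531 and 481 FPKM in wild-type cells. The subunits summed to 142 and 180 FPKM in kdrl:cxcr1 cells and to 129 and 126 FPKM in wild-type cells. The ratio of inhibitor to subunit sum was 4.41 and 3.80 in kdrl:cxcr1 and 4.11 and 3.83 in wild-type, so the genotypes overlapped. Both clutch 1 ratios lay above both clutch 2 ratios. Without the IkB-alpha pair the ratio was 0.54 and 0.40 in kdrl:cxcr1 and 0.45 and 0.39 in wild-type. In unscaled FPKM both sums were above wild-type in both kdrl:cxcr1 libraries, and no p is given for a sum over chosen members. The median-of-ratios factors, which put libraries on a common scale, were also higher in kdrl:cxcr1. They were taken over the 14887 tested genes that read above 0 in all 4 libraries. The factors were 1.098 and 1.121 in kdrl:cxcr1 clutches 1 and 2, against 0.958 and 0.934 in wild-type clutches 1 and 2. After division by these factors the genotypes overlap for the subunit sum. They stay apart for the inhibitor sum, but only by a small margin between the clutch 1 libraries. For nfkbiab, the largest part of that sum, they overlap.

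The second comparison was between genotypes, with limma's moderated test over all 17723 genes and Benjamini-Hochberg adjustment. None of the 10 members passed at an adjusted p under 0.05 (0 of 10), where 2 of all tested genes, 0.0113%, did. At an unadjusted p under 0.05 limma gave 1 member, nfkbie, against 6.8% of all tested genes. With the clutch as a block the fit also called 0 members, and the smallest adjusted p among them was 0.598. The members' adjusted p ran from 0.699 to 0.995. Both kdrl:cxcr1 libraries lay above both wild-type libraries for 4 of the 10 members (nfkb1, relb, nfkbiab and nfkbie), where 26% of all tested genes did so. Both lay below for bcl3 alone, where 13.6% of all tested genes did so. These orders and shares are of unscaled FPKM. After division by the median-of-ratios factors given above, the genotypes overlap for nfkb1, relb and nfkbiab. They stay apart for nfkbie and bcl3. For rela, by a small margin, and for tnfaip3 both kdrl:cxcr1 libraries then also lie below both wild-type libraries. The share of all tested genes in either order after scaling was not computed.

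Among the subunits, nfkb1 encodes a precursor that is processed to a DNA-binding partner lacking an activation domain. nfkb1 read 24.6 and 54.0 FPKM in kdrl:cxcr1 clutches 1 and 2, against 24.6 and 18.6 FPKM in wild-type clutches 1 and 2. Only kdrl:cxcr1 clutch 2 stood out as high, and the clutch 1 libraries were nearly equal. The log2 difference was 0.75 (SE 0.49, 95% interval -0.47 to 1.96, limma adjusted p = 0.737), and it ran from 0.19 to 1.3 with 1 library left out.

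relb encodes the activating subunit of the alternative NF-kB pathway. It read 36.0 and 54.4 FPKM in kdrl:cxcr1 cells, against 32.7 and 17.4 FPKM in wild-type cells. The 2 clutch 1 libraries were close, and kdrl:cxcr1 clutch 2 was the highest and wild-type clutch 2 the lowest. The log2 difference was 0.86 (SE 0.46, 95% interval -0.27 to 1.99, adjusted p = 0.703), with a range of 0.43 to 1.3 when 1 library was left out.

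nfkb2, whose precursor protein pairs with RelB in the alternative pathway, had 22.5 and 10.8 FPKM in kdrl:cxcr1 cells, against 21.0 and 4.41 FPKM in wild-type cells. The clutches were further apart than the genotypes. Its log2 difference by genotype was 0.61 (95% interval -1.34 to 2.56), and it was -0.40 without wild-type clutch 2.

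The subunits with their own activation domain in the classical pathway gave differences below 0. rela, encoding the main activating subunit, read 24.2 and 20.5 FPKM in kdrl:cxcr1 cells, against 21.5 and 36.3 FPKM in wild-type cells. rel, encoding a subunit best known from blood cells in mammals, read 34.9 and 40.7 FPKM in kdrl:cxcr1 cells, against 29.6 and 48.9 FPKM in wild-type cells. In both genes wild-type clutch 2 was the highest library and the genotypes overlapped in unscaled FPKM. After division by the median-of-ratios factors they still overlapped for rel, but for rela both kdrl:cxcr1 libraries lay below wild-type. The log2 difference was -0.32 for rela (95% interval -1.35 to 0.72; 0.05 without wild-type clutch 2) and -0.02 for rel (95% interval -0.99 to 0.96; 0.34 when wild-type clutch 2 was left out and 0.09 when kdrl:cxcr1 clutch 1 was).

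Among the inhibitors, nfkbie, which encodes IkB-epsilon, gave the largest difference of the 10 members and the smallest p. It read 39.9 and 38.6 FPKM in kdrl:cxcr1 clutches 1 and 2, against 20.4 and 13.4 FPKM in wild-type clutches 1 and 2. The kdrl:cxcr1 libraries were nearly equal and both lay above wild-type, at 39.3 ± 0.918 FPKM against 16.9 ± 4.97 FPKM (SD, n = 2 each). The log2 difference was 1.20 (SE 0.39, 95% interval 0.23 to 2.17), which did not pass over all genes (limma adjusted p = 0.699). With 1 library left out it ran from 0.91 to 1.49, and its p ranked 488 of 17723.

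The IkB-alpha genes are fish duplicates of 1 mammalian gene, the classical early feedback target of NF-kB, and they differed in pattern. nfkbiab read 424 and 368 FPKM in kdrl:cxcr1 cells, against 325 and 317 FPKM in wild-type cells. nfkbiaa read 127 and 246 FPKM in kdrl:cxcr1 cells, against 148 and 114 FPKM in wild-type cells. For nfkbiab the genotypes did not overlap in unscaled FPKM and the spread was small, while nfkbiaa was high in kdrl:cxcr1 clutch 2 alone. The log2 difference was 0.30 for nfkbiab (SE 0.31, 95% interval -0.47 to 1.07, limma adjusted p = 0.837). It was 0.44 for nfkbiaa (SE 0.42, 95% interval -0.61 to 1.49, limma adjusted p = 0.819) and -0.04 without kdrl:cxcr1 clutch 2. Median-of-ratios scaling moved the difference to 0.07 for nfkbiab and 0.21 for nfkbiaa. Quantile normalization moved it to 0.06 for nfkbiab and 0.36 for nfkbiaa. The ratio of nfkbiab to nfkbiaa was 3.34 and 1.5 in kdrl:cxcr1 and 2.19 and 2.77 in wild-type.

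tnfaip3 encodes a ubiquitin-editing enzyme that shuts down signalling upstream of IKK. It read 29.5 and 29.2 FPKM in kdrl:cxcr1 cells, against 29.6 and 26.6 FPKM in wild-type cells. In unscaled FPKM it was the steadiest of the members, with a coefficient of variation of 5.02%. After division by the median-of-ratios factors it was no longer the steadiest. Its log2 difference of 0.06 (95% interval -0.80 to 0.92) turned to -0.16 after median-of-ratios scaling and -0.06 after quantile normalization, and was -0.01 without wild-type clutch 2. bcl3 read 7.25 and 3.96 FPKM in kdrl:cxcr1 cells, against 8.48 and 9.65 FPKM in wild-type cells. It was the lowest member, and its log2 difference was -0.65 (SE 0.53, 95% interval -1.97 to 0.67, limma adjusted p = 0.781), ranging from -1.02 to -0.28 with 1 library left out.

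**Figure D2:**
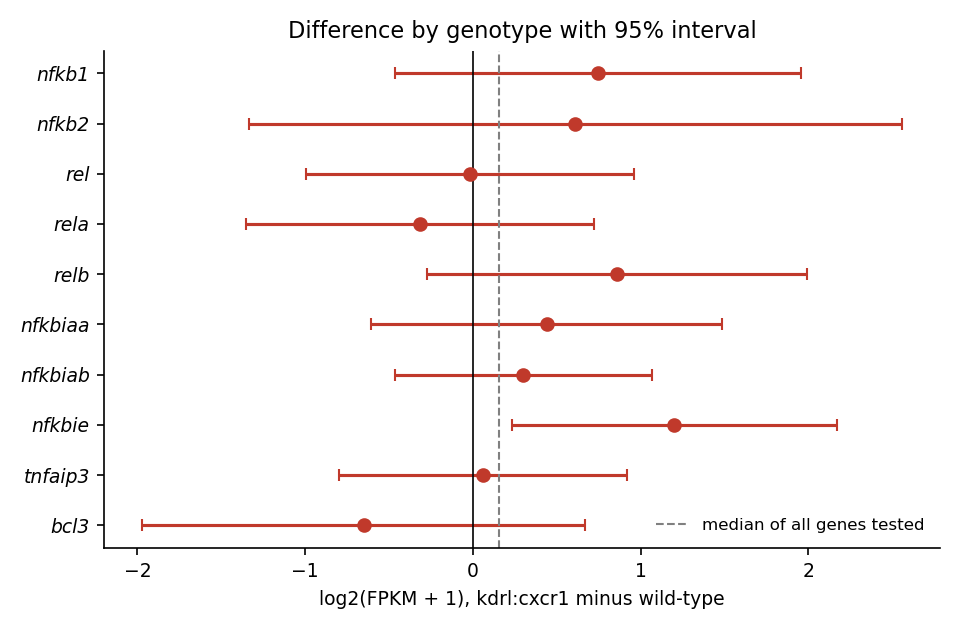
Log2 difference of each member, kdrl:cxcr1 minus wild-type, on the log2(FPKM + 1) scale; points are limma estimates from 2 libraries per genotype, bars their 95% intervals, and the dashed line the median of all tested genes (0.16). Of the 10 intervals only that of nfkbie (0.23 to 2.17) leaves out 0, before any adjustment for the number of genes.

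The median difference of all tested genes was 0.16 log2 units, which median-of-ratios scaling moved to -0.03. Relative to that median 6 of the 10 members were above and 4 below (rel, rela, tnfaip3 and bcl3), where 50% of all genes are above by construction. After scaling the count above 0 was likewise 6. The median difference was 0.61 over the 5 subunits, the value of nfkb2 itself, and 0.30 over the 5 inhibitors. Over the 10 members it was 0.37, and 0.14 after median-of-ratios scaling. Without kdrl:cxcr1 clutch 1 or 2 the member median was 0.16 or 0.13, beside 0.15 or 0.22 for all tested genes. Without wild-type clutch 1 or 2 it was 0.47 or 0.27, beside 0.24 or 0.10 for all tested genes.

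The third comparison was between clutches, clutch 2 minus clutch 1, in a limma fit over the same genes. None of the 10 members passed (0 of 10), where 3 of all tested genes, 0.0169%, did. At an unadjusted p under 0.05 limma gave 1 member, nfkb2, against 9.2% of all tested genes. nfkb2 averaged 7.60 ± 4.52 FPKM in clutch 2 and 21.7 ± 1.06 FPKM in clutch 1 (SD, n = 2 each). Its log2 difference was -1.51 (SE 0.55, 95% interval -2.92 to -0.10, limma adjusted p = 0.503), and it ran from -2.07 to -0.95 with 1 library left out.

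Both clutch 2 libraries lay below both clutch 1 libraries for nfkb2 and tnfaip3, 2 of the 10 members, where 20.4% of all tested genes did so. Both lay above for rel alone, at 44.8 ± 5.83 FPKM in clutch 2 and 32.3 ± 3.72 FPKM in clutch 1, where 15.5% of all tested genes did so. The log2 difference of rel was 0.46 (SE 0.35, limma adjusted p = 0.863). These orders and shares by clutch are of unscaled FPKM. After division by the median-of-ratios factors the clutches overlap for tnfaip3 and stay apart for nfkb2 and rel. The share of all tested genes after scaling was not computed. The ratio of nfkb1 to nfkb2 followed the clutch and not the genotype. In clutch 2 it was 5.0 in kdrl:cxcr1 and 4.22 in wild-type, and in clutch 1 it was 1.09 in kdrl:cxcr1 and 1.17 in wild-type. nfkb1 alone overlapped between the clutches, so this split rests largely on nfkb2, already picked out above.

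The genotype difference was also read within each clutch, from 1 library per genotype and in unscaled FPKM. In clutch 2 the 5 subunits spread over log2 ratios of -0.79 (rela) to 1.59 (relb), and in clutch 1 over 0.00 (nfkb1) to 0.23 (rel). The median absolute log2 ratio of the 10 members was 1.1 in clutch 2 and 0.18 in clutch 1, beside 0.80 and 0.49 over all tested genes in clutch 2 and clutch 1. In clutch 1 the largest ratios were those of nfkbie, at 1.47 in clutch 2 and 0.94 in clutch 1, and nfkbiab, at 0.22 in clutch 2 and 0.38 in clutch 1. The log2 ratios had opposite signs in the clutches for 4 of the 10 members (rel, rela, nfkbiaa and tnfaip3), the same share as the 40% of all tested genes. Whether the genotype difference depends on the clutch could not be tested, because 4 libraries leave no residual degrees of freedom for an interaction.

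**Figure D3:**
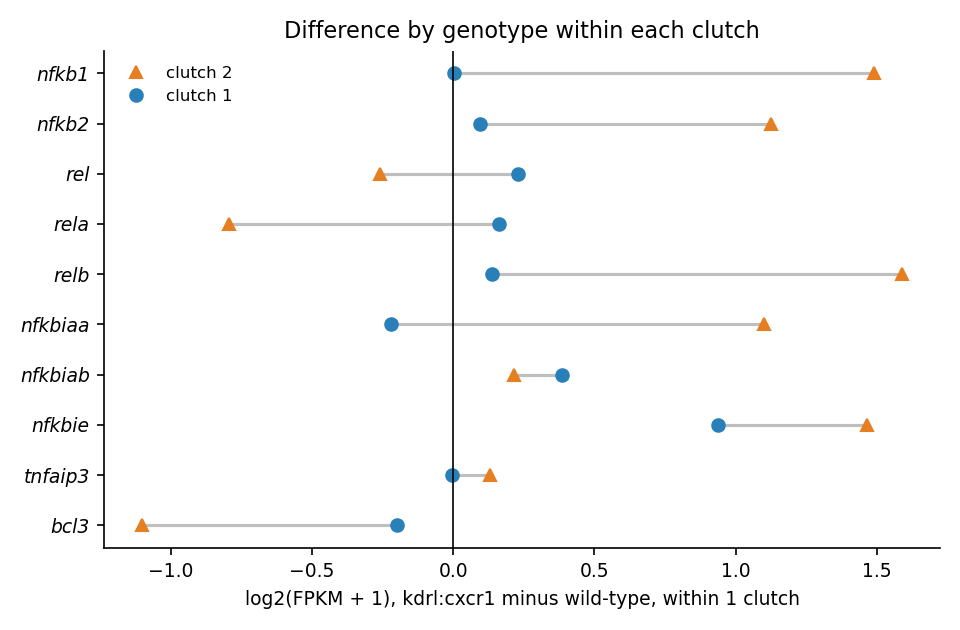
Log2 ratio of kdrl:cxcr1 to wild-type within each clutch on the log2(FPKM + 1) scale; each point compares 1 library with 1 library and has no replicate. In clutch 1 all members but nfkbie (0.94) and nfkbiab (0.38) lie within 0.23 of 0, while in clutch 2 they run from -1.1 (bcl3) to 1.59 (relb).

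In unscaled FPKM wild-type clutch 2 was the library at the edge of the range for every member, a count made after the values were seen. It was the lowest of the 4 libraries for 7 members (nfkb1, nfkb2, relb, nfkbiaa, nfkbiab, nfkbie and tnfaip3), where it was lowest for 34.1% of all tested genes. It was the highest for the other 3, rel, rela and bcl3, where it was highest for 24.7% of all tested genes. In all it was at an edge for 10 of 10 members and for 58.7% of all tested genes. Over all tested genes kdrl:cxcr1 clutch 2 was at an edge about as often, for 57.5%, and for 5 of the 10 members. The clutch 1 libraries were at an edge for 38.8% (kdrl:cxcr1) and 40.4% (wild-type) of all tested genes. After division by the median-of-ratios factors wild-type clutch 2 left the edge for nfkbiaa, nfkbiab and tnfaip3. It stayed at an edge for the other members, and the share of all tested genes at an edge after scaling was not computed. Wild-type clutch 2 differed in other measures. The 12 matched endothelial markers summed to 970 FPKM there and to 592 to 748 FPKM in the other libraries. The share of rn7sl1, an RNA of the signal recognition particle, in the FPKM sum was 23.98% there and 30.1% to 39.8% elsewhere. The part of these differences in the members' values was not tested.

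The make-up of the subunit transcripts showed the same library apart, which follows from its place at the edge for each subunit. rel and rela together made up 41.5% and 33.9% of the subunit FPKM in kdrl:cxcr1 clutches 1 and 2, against 39.5% and 67.8% in wild-type clutches 1 and 2. relb made up 25.3% and 30.2% in kdrl:cxcr1, against 25.2% and 13.9% in wild-type. The ratio of relb to rela was 1.49 and 2.66 in kdrl:cxcr1, against 1.52 and 0.481 in wild-type. The clutch 1 libraries were alike in these shares and the clutch 2 libraries were on either side of them.

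**Figure D4:**
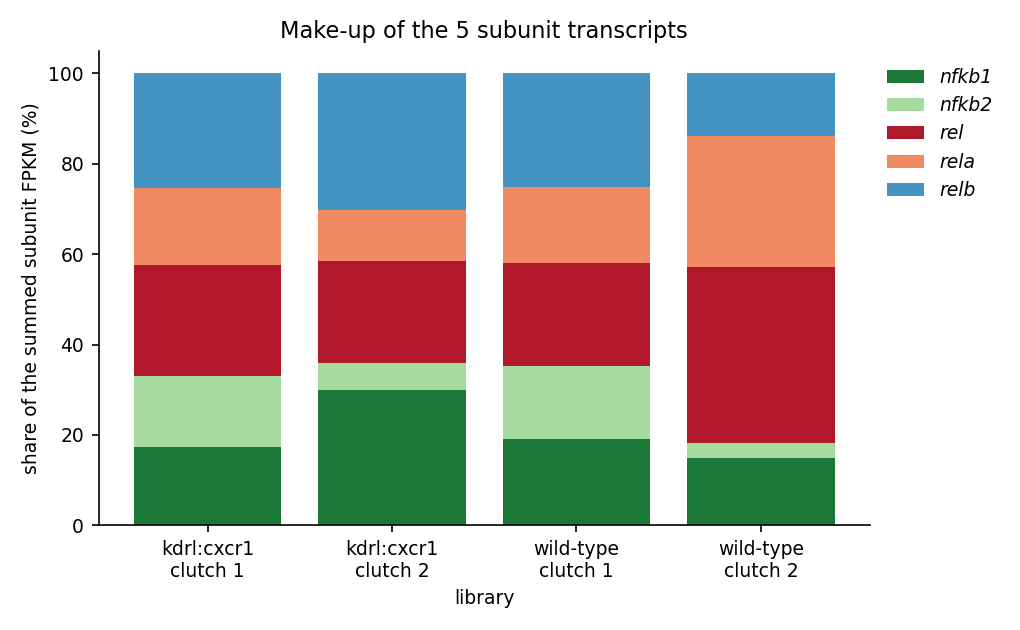
Share of each subunit gene in the summed FPKM of the 5 subunit genes, 1 bar per library. rel and rela fill 67.8% of the wild-type clutch 2 bar and 33.9% to 41.5% of the others.

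Blood cells, which a sort can carry along, also express NF-kB genes. Of 21 neutrophil and macrophage markers 17 were matched, in 22 rows of which 17 were tested. The matched rows summed to 1362 and 2070 FPKM in kdrl:cxcr1 clutches 1 and 2, against 921 and 1103 FPKM in wild-type cells. In clutch 1 most of this gap lay in 1 gene, npsn, which fell from 572 FPKM with the transgene to 132 FPKM without it. The median log2 ratio by genotype over the tested rows was 0.01 in clutch 1 and 1.45 in clutch 2. Over all tested genes that median was 0.14 in clutch 1 and 0.15 in clutch 2. Of the tested rows 14 lay above the median gene in kdrl:cxcr1, with 0 called, and the pan-leukocyte gene ptprc was listed at 0 in all 4 libraries. The 13 lymphoid and thrombocyte markers, all matched, had 5 of 8 tested rows above the median gene and 3 below (il7r, cd79a and gp1bb), with 0 called. They summed to 83.9 and 86.8 FPKM in kdrl:cxcr1 cells, against 35.8 and 108 FPKM in wild-type cells. The genotypes overlapped, and 2 of the markers, cd4-1 and cd79b, were listed at 0 in all 4 libraries.

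Markers of tissues outside the blood vessel wall and of red cells were read in the same libraries, and limma called 0 of their rows. Of 10 tested erythroid rows 8 lay above the median gene, with a median difference of 1.24 and sums of 6519 and 1472 FPKM in kdrl:cxcr1 cells and 3068 and 1624 FPKM in wild-type. Of 15 epidermal rows 14 lay below, with a median difference of -0.86 and sums of 849 and 600 FPKM in kdrl:cxcr1 cells and 938 and 1125 FPKM in wild-type. All 8 tested rows of the liver, gut and yolk list lay below, with a median difference of -1.39 and sums of 69.9 and 14.2 FPKM in kdrl:cxcr1 cells and 113 and 134 FPKM in wild-type. The part of any of these cell types in the values of nfkbie, relb and nfkb1 was not tested.

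Other genes of the pathway were read from 4 fixed lists, in which 0 of the tested rows passed in either direction by genotype (limma) and 0 by clutch. For the IKK complex and its adaptors, 31 of 35 names were matched and 28 rows tested. Of these 17 lay above the median gene and 11 below, and the median difference was 0.26, beside 0.16 for all genes. traf3, an adaptor that restrains the alternative pathway, read 31.1 and 33.9 FPKM in kdrl:cxcr1 cells, against 12.9 and 16.4 FPKM in wild-type cells (log2 difference 1.11, SE 0.38, limma adjusted p = 0.699). It was the 1 row of this list with an unadjusted p under 0.05. ripk1l, a kinase gene of the tumour necrosis factor receptor complex, had 7.17 and 9.09 FPKM in kdrl:cxcr1 cells, against 3.94 and 1.54 FPKM in wild-type cells. The adaptor gene traf2b had 20.6 and 31.97 FPKM in kdrl:cxcr1 cells, against 5.90 and 16.4 FPKM in wild-type cells. These 3 genes were named for having the smallest p in the list, so their separation by genotype follows from the choice.

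For other inhibitors of the pathway, 13 of 23 names were matched and 12 rows tested, with 8 above the median gene and 4 below and a median difference of 0.34. otulinb, related to a linear-ubiquitin protease of mammals, read 5.31 and 23.3 FPKM in kdrl:cxcr1 cells, against 4.22 and 2.09 FPKM in wild-type cells. nlrc3 read 9.73 and 5.28 FPKM in kdrl:cxcr1 cells, against 1.69 and 4.03 FPKM in wild-type cells. n4bp1 read 45.0 and 57.4 FPKM in kdrl:cxcr1 cells, against 25.4 and 38.9 FPKM in wild-type cells. None of the 12 rows had an unadjusted p under 0.05 (0 by limma).

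For ligands and receptors upstream, 28 of 35 names were matched and 22 rows tested, with 5 above the median gene and 17 below. Their median difference was -0.16. tnfa, a tumour necrosis factor gene, read 1.96 and 1.33 FPKM in kdrl:cxcr1 cells, against 4.57 and 8.89 FPKM in wild-type cells (log2 difference -1.5, SE 0.63, limma adjusted p = 0.699). Tumour necrosis factor is a leading activator of the pathway. Another gene for it, tnfb, read higher, at 39.7 and 50.1 FPKM in kdrl:cxcr1 cells, against 102 and 38.3 FPKM in wild-type cells. For tnfb the genotypes overlapped. The gene of the fish Toll-like receptor tlr22 had 0.641 and 0.0999 FPKM in kdrl:cxcr1 cells, against 1.0 and 3.33 FPKM in wild-type cells. The tlr22 values are low, and it passed the filter through the wild-type libraries alone, so its separation by genotype partly follows from the filter. cd40, a receptor gene that signals to the alternative pathway, had 9.11 and 23.4 FPKM in kdrl:cxcr1 cells, against 6.42 and 9.60 FPKM in wild-type cells. tnfa, tlr22 and cd40 were named for the smallest p in the list, so any separation by genotype follows from the choice.

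For inflammatory target genes, 30 of 44 names were matched and 27 rows tested, with 13 above the median gene and 14 below. Their median difference of 0.13 was close to that of all genes. The chemokine gene ccl34b.1 read 20.6 and 67.6 FPKM in kdrl:cxcr1 cells, against 3.78 and 7.81 FPKM in wild-type cells (log2 difference 2.57, SE 0.68, limma adjusted p = 0.699). The cytokine gene il6 read 2.23 and 2.58 FPKM in kdrl:cxcr1 cells and was listed at 0 in both wild-type libraries. These values are low, and a 0 can be a failed estimate. il6 passed the filter on low values through the kdrl:cxcr1 libraries alone, so its separation by genotype partly follows from the filter. bcl2l1, a cell survival gene, read 50.9 and 53.4 FPKM in kdrl:cxcr1 cells, against 20.9 and 35.9 FPKM in wild-type cells. As in the other lists, the 3 genes were named for the smallest p, so any separation by genotype follows from the choice. An unadjusted limma p under 0.05 was found for 2 of the 27 rows, ccl34b.1 and il6, where 6.8% of all tested genes had one. The place of il6 in this count leans on the filter.

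**Figure D5:**
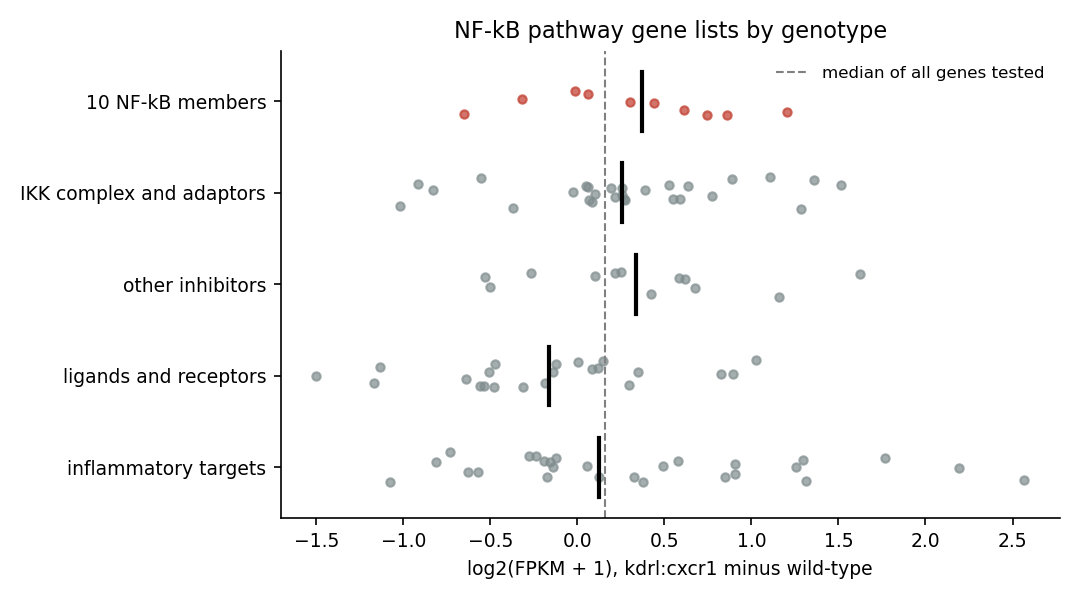
Log2 difference by genotype on the log2(FPKM + 1) scale for the 10 members and for each tested row of 4 pathway lists, spread vertically at random for visibility; black bars are medians and the dashed line is the median of all tested genes (0.16). List medians run from -0.16 (ligands and receptors) to 0.34 (other inhibitors), and that of the members is 0.37.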

How the data were processed

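RNA-seq of sorted endothelial cells was deposited by the authors as 1 table of FPKM values, with 1 column per library. The kit was a SMARTer low-input one, per the labels' protocols. The submitters' processing notes name cutadapt, without a version, TopHat2 2.0.11, Cufflinks 2.2.1 and the build GRCz10. Annotation, read filters and strand setting are not stated there, so rows of near-identical or overlapping genes are uncertain, and no coordinates are printed. A 0 in Cufflinks output can be a failed estimate.

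Of the 31951 Ensembl identifiers 26120 could be given a symbol. Genotype and clutch came from the library titles. Values were analysed as log2(FPKM + 1), which understates fold changes of low genes, with limma 3.58.1 in R 4.3.3, using an intensity trend, two-sided tests and Benjamini-Hochberg adjustment over 17723 genes. Of the 5.69 degrees of freedom per gene, 3.69 were borrowed from other genes, and the median SE by genotype was 0.62. The script was tested on simulated data. The members and lists were chosen with earlier results of these data known. Of other genes, the 3 members of each pathway list with the smallest p by genotype were named. tnfb was added beside tnfa, and marker genes were named after their levels had been looked at.

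Clutch numbers pair the libraries, since either clutch gave 1 library per genotype; deviations from group means correlated at 0.116 within a clutch. The alternatives were the clutch as a block (genotype as a term for the clutch fit), pseudocounts of 0.1 and 5, dropping the filter or raising it to an FPKM of 5, scaling by median of ratios, quantile normalization, moderation without the trend or made robust, a threshold of 0.1, each library left out, bcl3 left out of the inhibitors, and symbols without a final a or b.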

Additional observations from a re-analysis of the deposited data

Results flagged for a closer look

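Of the 10 members 4 had log2 ratios of kdrl:cxcr1 to wild-type of opposite sign in the clutches, as did 40% of all tested genes. Each ratio compares 1 library with 1 library in unscaled FPKM, and the difference between clutches was not tested. For nfkbiaa the ratio was 1.1 in clutch 2 and -0.22 in clutch 1. For rela it was -0.79 in clutch 2 and 0.16 in clutch 1. For rel it was -0.26 in clutch 2 and 0.23 in clutch 1. For tnfaip3 it was 0.13 in clutch 2 and -0.0054 in clutch 1.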

How the results depend on the processing

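No member passed the test by genotype or by clutch under any alternative run. Of all genes, 2 were called by genotype, and 0 with the clutch as a replicate block, with a pseudocount of 0.1, without a filter or without the trend. By clutch 3 were called, and 1 with a pseudocount of 0.1, without a filter or without the trend. With 1 library left out, the genotype fit called 0 throughout and the clutch fit 0 to 15. A lone library is then assumed to vary like the others. The median inhibitor lay 0.34 log2 units above the median subunit, 1.42 without bcl3 among the inhibitors, and 0.23 to 0.48 with 1 library left out. Symbols without a final a or b matched no further row. The block changed no other call.

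By genotype, tnfaip3 turned to -0.16 under median-of-ratios scaling and -0.062 under quantile normalization. With 1 library left out, the log2 difference by genotype ran from -0.40 to 1.62 for nfkb2, -0.37 to 0.34 for rel, -0.68 to 0.047 for rela, -0.035 to 0.91 for nfkbiaa and -0.014 to 0.14 for tnfaip3. The sign turned without wild-type clutch 2 for nfkb2, rel, rela and tnfaip3, without kdrl:cxcr1 clutch 1 for rel, and without kdrl:cxcr1 clutch 2 for nfkbiaa. By clutch it ran from -0.39 to 1.1 for nfkb1, -0.15 to 0.65 for rela, -0.94 to 0.65 for relb, -0.26 to 0.84 for nfkbiaa, -0.31 to 0.075 for nfkbiab, -1.04 to 0.42 for nfkbie and -0.83 to 0.27 for bcl3. The sign turned without kdrl:cxcr1 clutch 1 for nfkbiab and nfkbie, without kdrl:cxcr1 clutch 2 for nfkb1, nfkbiaa and bcl3, and without wild-type clutch 2 for rela, relb and nfkbie. The cause was not tested. Depth is unknown. The 95% intervals by genotype are given beside each member, and an interval by clutch for nfkb2 alone.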

Other observations

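IkB genes outside the listed members, named after their values were seen, were also read. nfkbib, encoding IkB-beta, read 27.6 and 6.20 FPKM in kdrl:cxcr1 clutches 1 and 2, against 15.2 and 25.4 FPKM in wild-type clutches 1 and 2 (log2 difference -0.53). nfkbiz, encoding a nuclear IkB protein, read 37.2 and 23.7 FPKM in kdrl:cxcr1 cells, against 13.0 and 36.8 FPKM in wild-type cells (log2 difference 0.42). Neither passed limma's test, and in both genes the genotypes overlapped. In clutch 1 both read higher in kdrl:cxcr1 and in clutch 2 both read lower in kdrl:cxcr1.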
